A study of Mus musculus with 14 samples.

Results

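Steroid hormone metabolism in the liver was examined through 10 genes: Cyp17a1, Hsd3b2, Hsd3b3, Hsd3b5, Hsd3b7, Hsd11b1, Srd5a1, Hsd17b2, Hsd17b6 and Serpina6. A gene counted as measured where a probe set of the array was annotated to it alone, which held for 9 of the 10, out of 22180 genes. Srd5a1 was not analysed here. For a gene with several such probe sets the one with the highest mean over all 14 arrays was taken, and each of the 9 had only 1. The genes were chosen by their place in steroid metabolism together with their measured differences between sleep-deprived and control livers on these same arrays, so their differences between the groups are a description of these livers. The adjusted p-values printed for them say where each gene stood in a fit over all 22180 genes, and nothing is supported with them.

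The livers came from 14 male C57BL/6J mice, an inbred strain. There were 7 mice in the sleep-deprived group (mice 1, 2, 3, 5, 6, 10 and 13), which the study's title describes as deprived of sleep once for 6 h, and 7 in the control group (mice 4, 7, 8, 9, 11, 12 and 14). Sleep was disturbed in the study by gentle handling, by a water platform or by changing cages, per the series' design, and the method used for these livers is not named there. Age, time of collection and feeding are likewise unstated in the sources used here. The labels number the liver samples, and each is taken as 1 mouse.

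Values were log2 expression per probe set, called the log2 level below, from RMA as the authors deposited them. Array medians were 3.443 to 3.491, and pairs of arrays correlated at 0.984 to 0.9903. Of all genes, 1886 (8.5%) differed at an adjusted p under 0.05 (limma, Benjamini-Hochberg), 861 (3.88%) higher and 1025 (4.62%) lower after sleep deprivation. The share grew with the level of a gene, its mean over all 14 arrays. All 9 measured genes were among the 2219 at or above the 90th percentile of level. Of these 2219, 26% passed, 10.6% higher and 15.4% lower. Cyp17a1, at percentile 90.2, and Hsd3b2, at 90.6, were barely inside, each through the group where it was higher. Of 7 hepatocyte markers 2 were slightly higher, Apoa1 by 0.12 and Cps1 by 0.11 (log2), and Alb was at a log2 level of 13.31 in sleep-deprived and 13.31 in control livers. Their summed log2 level ranged from 84.6 to 85.0 in sleep-deprived and from 84.2 to 84.9 in control mice.

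Steroid hormones are made from cholesterol by cytochrome P450 enzymes and hydroxysteroid dehydrogenases, mainly in the adrenal cortex and the gonads. The liver takes part at the other end. It secretes the plasma protein that carries glucocorticoids, converts inert keto forms back to active hormone, and reduces, oxidises, hydroxylates and conjugates androgens, oestrogens and corticosteroids for excretion. Several of the enzymes involved are also shared with bile acid synthesis, which starts from the same precursor.

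Among the 9 measured genes, 1 was higher (Cyp17a1), 5 were lower (Serpina6, Hsd3b2, Hsd3b3, Hsd3b5 and Hsd3b7) and 3 did not pass (Hsd11b1, Hsd17b2 and Hsd17b6). Over all genes 3.88% were higher and 4.62% lower, and at or above the 90th percentile of level 10.6% and 15.4%. The median log2 difference of the 9 genes, sleep-deprived minus control, was -0.29, beside -0.0048 over all genes. At 4 of the 9 the groups were fully separate, beside 3.13% of all genes, and 3 of these were lower, beside 1.79% of all genes. Since the genes were chosen with such differences known, these counts carry no weight of their own.

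Cyp17a1, the steroid hydroxylase and lyase that commits precursors to androgens, had the only rise (probe set 17365410). In sleep-deprived mice its log2 level was 8.55, 8.11, 8.74, 8.74, 8.66, 8.35 and 8.73 in mice 1, 2, 3, 5, 6, 10 and 13. In control mice it was 7.04, 6.80, 6.52, 7.16, 6.96, 7.56 and 5.99 in mice 4, 7, 8, 9, 11, 12 and 14. Every sleep-deprived mouse lay above every control, the closest being sleep-deprived mouse 2 and control mouse 12. The means were 8.55 ± 0.24 in sleep-deprived and 6.86 ± 0.50 in control livers (SD, n = 7 each), a log2 difference of 1.69 ± 0.17 (moderated SE) or 3.23-fold (limma, adjusted p = 2.60e-06). Its rise was the 8th largest of all 22180 genes. The controls were spread more widely than the sleep-deprived mice, control mouse 14 being the lowest and control mouse 12 the highest.

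Steroid synthesis lies mainly in the adrenal cortex and the gonads, so markers of the adrenal cortex and the testis were read beside Cyp17a1. They are levels of other genes, and the source of the Cyp17a1 RNA was not tested. Of 8 adrenal cortex markers measured, 0 passed in either direction (limma, 1 at an unadjusted p under 0.05), and of 5 markers of testicular Leydig cells 0 passed (0 at an unadjusted p under 0.05). Cyp11a1, which makes the first step of steroid synthesis in both organs, was at a log2 level of 2.96 in sleep-deprived and 2.97 in control livers, and Cyp11b1, the last step of glucocorticoid synthesis, at 2.03 and 2.14, in the same order of groups. Both lie below the median of the arrays, but 4 of the 8 adrenal markers lie above it in both groups. Mrap was at 7.32 in sleep-deprived and 7.19 in control livers. Star was at 4.20 and 4.12, Nr5a1 at 3.67 and 3.64, and Cyp21a1 at 3.55 and 3.55, in the same order of groups. The array median covers all probe sets, and among genes Nr5a1 and Cyp21a1 were below the median, at percentiles 44.9 and 43.3 of level. The summed log2 level of the 8 adrenal markers ranged from 27.5 to 28.9 in sleep-deprived and from 27.3 to 28.6 in control mice.

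**Figure D1:**
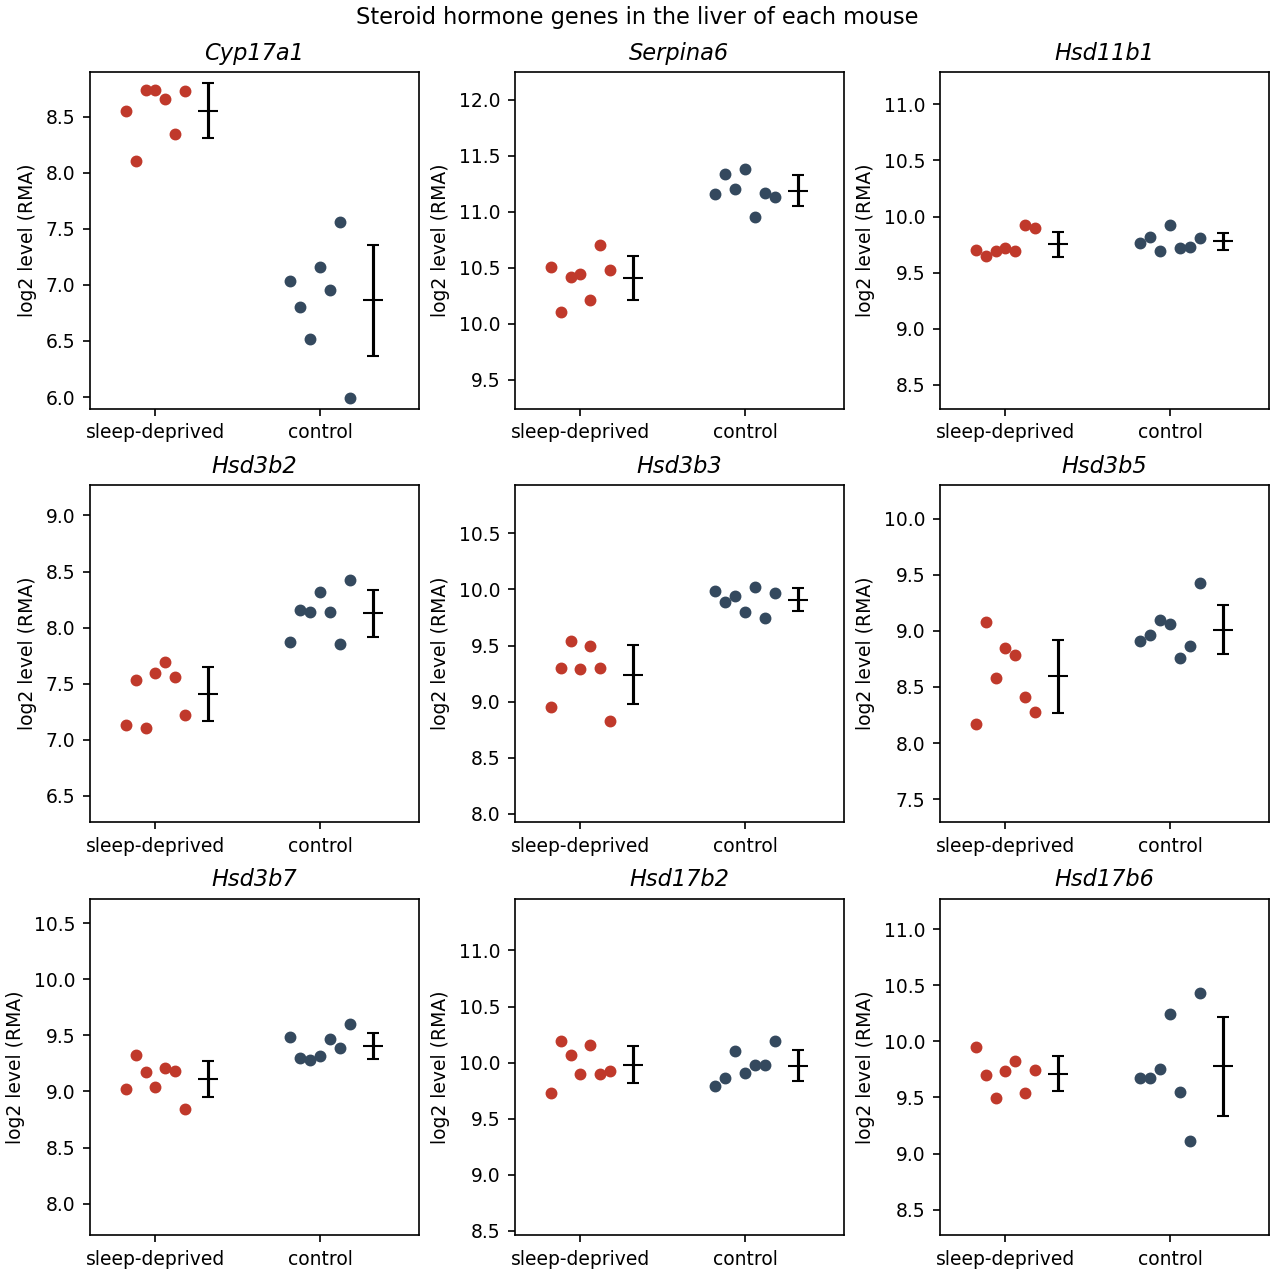
Log2 level of each measured gene in each mouse, sleep-deprived (red, left) and control (dark, right), in mouse order, with the mean and SD of the 7 mice beside the points. Every panel spans 3 log2 units. Cyp17a1 lies between 8.11 and 8.74 in the sleep-deprived mice and between 5.99 and 7.56 in the controls, while Serpina6, Hsd3b2 and Hsd3b3 lie below all controls.

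Serpina6 encodes corticosteroid-binding globulin, the liver-made carrier of corticosterone in plasma (probe set 17283573). Its log2 level was 10.51, 10.11, 10.41, 10.44, 10.21, 10.71 and 10.48 in sleep-deprived mice 1, 2, 3, 5, 6, 10 and 13. It was 11.16, 11.33, 11.20, 11.38, 10.95, 11.16 and 11.13 in control mice 4, 7, 8, 9, 11, 12 and 14. The groups did not overlap, and sleep-deprived mouse 2, which had the least Cyp17a1 of its group, also had the least Serpina6. Over the 7 sleep-deprived mice, however, Cyp17a1 and Serpina6 had Pearson's r = 0.25 and Spearman's rho = -0.036. The log2 difference of Serpina6 was -0.78 ± 0.077, a 1.71-fold lower level (limma, adjusted p = 2.44e-06). Fewer cells of a type and less RNA per cell cannot be told apart in these whole-liver samples, here and in the results that follow.

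Hsd11b1, the dehydrogenase that regenerates active corticosterone inside liver cells, differed by less than the spread between mice (probe set 17231229). Its log2 level ran from 9.65 through a median of 9.70 to 9.93 in sleep-deprived mice, and from 9.70 through 9.76 to 9.92 in controls. The log2 difference was -0.024, with an interval at 95% of -0.13 to 0.08 (limma, adjusted p = 0.874). H6pd, which supplies that enzyme with NADPH in the endoplasmic reticulum, averaged 9.46 ± 0.12 in sleep-deprived and 9.39 ± 0.0715 in control livers (SD, n = 7 each; limma, adjusted p = 0.537).

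The glucocorticoid receptor gene Nr3c1 was lower in every sleep-deprived mouse than in every control. It ran from 7.43 through a median of 7.72 to 7.75 in sleep-deprived mice and from 7.82 through 7.89 to 8.01 in controls, a small log2 difference of -0.22 ± 0.055 (limma, adjusted p = 0.0136). Of 14 measured genes that glucocorticoids induce, 8 were higher, 0 were lower and 6 did not pass, beside 3.88% of all genes higher, and the median log2 difference was 0.45. Fkbp5, a chaperone that restrains the receptor, was at 8.04 ± 0.238 in sleep-deprived and 6.49 ± 0.189 in control livers (SD, n = 7 each), and Ddit4, an inhibitor of growth signalling, at 6.93 ± 0.479 and 4.83 ± 0.388 in the same order of groups. Tat, a tyrosine-degrading enzyme, was at 12.74 ± 0.0422 in sleep-deprived and 12.33 ± 0.129 in control livers (SD, n = 7 each). Zbtb16, a transcriptional repressor induced through the receptor, was at 8.79 ± 0.346 in sleep-deprived and 7.97 ± 0.229 in control livers (SD, n = 7 each), a log2 difference of 0.82 ± 0.13 (limma, adjusted p = 0.000292). Sleep-deprived mouse 2 was the lowest of its group in Zbtb16, at 8.05, and lay inside the control range.

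The Hsd3b genes encode hydroxysteroid dehydrogenases that lie side by side on chromosome 3 of the mouse in the order Hsd3b4, Hsd3b5, Hsd3b2, Hsd3b3, Hsd3b6 and Hsd3b1, apart from Hsd3b7 on chromosome 7. Hsd3b2 and Hsd3b3 belong to the isomerase type that turns delta-5 into delta-4 steroids, Hsd3b5 is a male-specific liver ketosteroid reductase that inactivates androgens, and Hsd3b7 acts on sterols early in bile acid synthesis. Because Hsd3b5, Hsd3b2 and Hsd3b3 were all lower and lie side by side, the windows from 250 bases before to 50 bases after their annotated starts are shown, from RefSeq's GRCm38.p6, all on the minus strand and written 5′ to 3′. In Hsd3b5 and Hsd3b3, capitals mark the longest run of identical bases shared by that pair, and in Hsd3b2 the longest run shared with Hsd3b5.
Hsd3b5, chr3:98645485-98645784: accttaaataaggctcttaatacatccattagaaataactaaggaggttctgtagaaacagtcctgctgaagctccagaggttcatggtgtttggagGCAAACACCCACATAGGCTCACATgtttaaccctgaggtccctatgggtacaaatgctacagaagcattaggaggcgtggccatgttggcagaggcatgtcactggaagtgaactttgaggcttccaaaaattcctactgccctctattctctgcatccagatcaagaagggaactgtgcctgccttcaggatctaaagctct
Hsd3b3, chr3:98763079-98763378: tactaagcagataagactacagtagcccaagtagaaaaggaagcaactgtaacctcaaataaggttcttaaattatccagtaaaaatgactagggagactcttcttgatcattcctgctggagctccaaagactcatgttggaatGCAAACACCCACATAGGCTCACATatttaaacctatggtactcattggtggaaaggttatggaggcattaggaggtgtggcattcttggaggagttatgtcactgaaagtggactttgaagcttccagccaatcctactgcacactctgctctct
Hsd3b2, chr3:98724494-98724793: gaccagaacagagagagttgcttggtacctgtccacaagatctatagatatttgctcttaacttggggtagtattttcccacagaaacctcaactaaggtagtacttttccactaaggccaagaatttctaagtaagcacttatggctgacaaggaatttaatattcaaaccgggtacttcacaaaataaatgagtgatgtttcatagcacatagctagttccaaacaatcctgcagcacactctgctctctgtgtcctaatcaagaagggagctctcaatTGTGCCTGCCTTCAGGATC

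The windows of Hsd3b5 and Hsd3b3 were 75.7% identical over a local alignment of 251 columns and shared a run of 24 bases, which occurred in 2 of the 27025 promoter windows of the table, 1 start a gene. The run spans positions -153 to -130 from the start of Hsd3b5 and -105 to -82 from that of Hsd3b3. Hsd3b2 shared 19 bases with Hsd3b5 after the start, at 58.3% identity over 307 columns, and 16 bases with Hsd3b3. The 13 pairs of windows that involve Hsd11b1 or Hsd17b6, from other chromosomes, reached 50.5% to 55.1% identity with runs of 8 to 9 bases, so the overall identity of Hsd3b2 with Hsd3b5 was little above that of unrelated windows. The windows of the other pair of the cluster, Hsd3b6 and Hsd3b1, matched those 3 over runs of 7 to 10 bases, and Hsd3b7 matched Hsd3b5 over 9. A search on both strands for the STAT element TTCNNNGAA, the steroid receptor hexamer AGAACA, the palindromic glucocorticoid response element, the E-box CACGTG, the D-box TTATGTAA and TATAAA found a single match in the 3 windows, AGAACA at position -246 of Hsd3b2, besides TTCCTGGAA at position -21 of Hsd3b7. AGAACA occurs in 19.0% of all windows, TTCNNNGAA in 8.47%, CACGTG in 7.24%, TATAAA in 14.2%, TTATGTAA in 0.955% and the palindrome in 0.463%. A match is a string of letters and not a site.

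Hsd3b2 was lower in all sleep-deprived mice (probe set 17408323). Its log2 level was 7.13, 7.54, 7.11, 7.59, 7.69, 7.56 and 7.22 in sleep-deprived mice 1, 2, 3, 5, 6, 10 and 13. It was 7.87, 8.15, 8.14, 8.31, 8.14, 7.86 and 8.43 in control mice 4, 7, 8, 9, 11, 12 and 14. The groups did not overlap, with a log2 difference of -0.72 ± 0.10 or a 1.65-fold lower level (limma, adjusted p = 0.000107).

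Hsd3b3 behaved alike, at 8.95, 9.30, 9.54, 9.29, 9.49, 9.30 and 8.83 in the same sleep-deprived mice and 9.98, 9.89, 9.94, 9.80, 10.02, 9.75 and 9.97 in the same controls (probe set 17408336). No sleep-deprived mouse reached the lowest control. The SD was 0.26 in the sleep-deprived mice and 0.10 in the controls, a difference in spread that was not tested. The log2 difference was -0.67 ± 0.090 or a 1.59-fold lower level (limma, adjusted p = 5.83e-05).

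Hsd3b5 was lower on average but not in every mouse (probe set 17408315). Its log2 level was 8.17, 9.08, 8.58, 8.85, 8.79, 8.41 and 8.28 in the sleep-deprived mice and 8.91, 8.96, 9.10, 9.06, 8.76, 8.87 and 9.43 in the controls, in the order of mice above. In 3 sleep-deprived mice it lay inside the control range, and in mouse 2 it was above the control mean. The log2 difference was -0.42 ± 0.12 or a 1.34-fold lower level (limma, adjusted p = 0.0372). This call was lost in 8 of the 14 fits without 1 mouse, namely without sleep-deprived mouse 1 (limma, adjusted p = 0.0877), 3 (0.0611), 10 (0.0758) or 13 (0.0881), or control mouse 7 (0.0526), 8 (0.0696), 9 (0.0666) or 14 (0.0797), and also without the intensity trend (0.0571), with robust estimation (0.0751) and with the sample number as a covariate (0.0560). A pair of probe sets annotated jointly to Hsd3b4, Gm10681 and Hsd3b5 carried identical values, at 6.13 ± 0.26 in sleep-deprived and 6.49 ± 0.18 in control livers (SD, n = 7 each), and cannot be assigned to 1 gene.

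The remaining measured genes of the cluster gave no difference. Hsd3b6 was at 2.24 ± 0.13 in sleep-deprived and 2.15 ± 0.11 in control livers (limma, adjusted p = 0.560), and Hsd3b1, the form of adrenal and gonads, at 1.90 ± 0.22 and 1.96 ± 0.093 in the same order (SD, n = 7 each; limma, adjusted p = 0.792). They lay at the 13.1th and 6.6th percentiles of level, where RMA compresses differences, so a change of a dim gene could be missed. Since the members of the cluster resemble each other, probes of 1 gene may also read RNA of another, which was not tested.

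Hsd3b7 was lower by a smaller step (probe set 17483471). It ran from 8.84 through a median of 9.17 to 9.33 in sleep-deprived mice and from 9.28 through 9.39 to 9.60 in controls, where 1 sleep-deprived mouse, mouse 2, lay inside the control range. The log2 difference was -0.29 ± 0.068 or a 1.23-fold lower level (limma, adjusted p = 0.00822), and all 7 sleep-deprived mice were below the control mean.

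**Figure D2:**
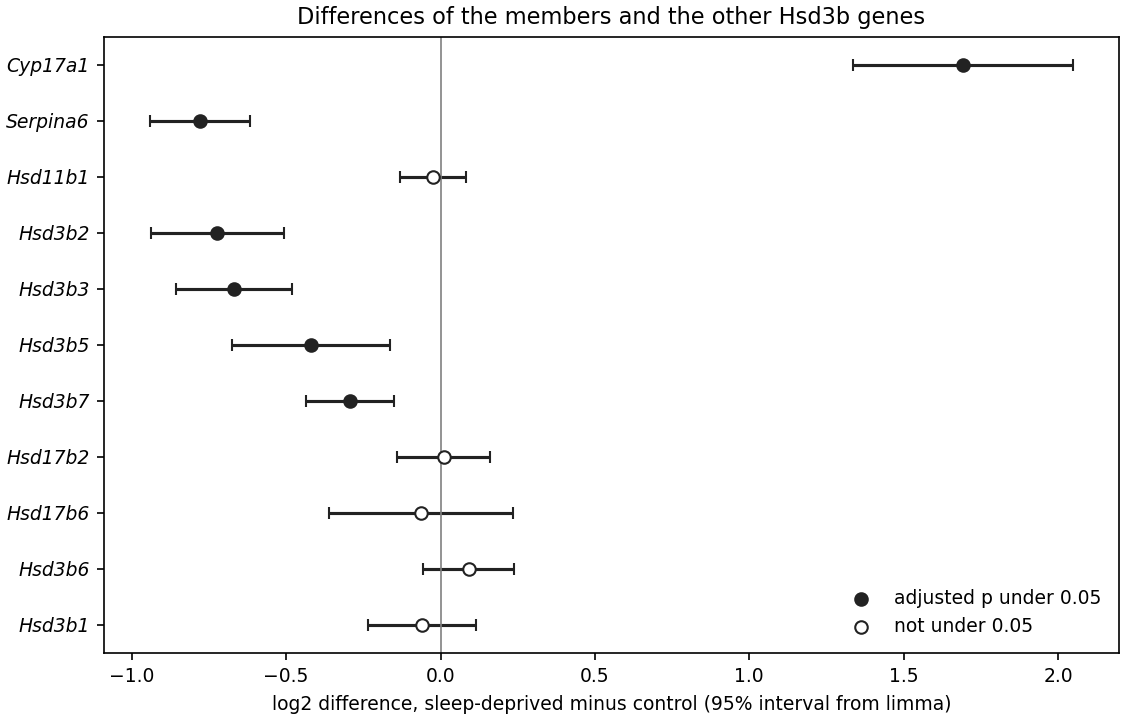
Log2 difference, sleep-deprived minus control, of the 9 measured genes and of the other measured genes of the Hsd3b cluster, with 95% intervals from limma. Filled points have an adjusted p under 0.05 over all genes. Cyp17a1 stands at 1.69, Serpina6 and Hsd3b2 at -0.78 and -0.72, and the intervals of Hsd11b1, Hsd17b2, Hsd17b6, Hsd3b6 and Hsd3b1 span 0.

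Of the dehydrogenases that act on the hydroxyl of carbon 17 or on androstanediols, neither gave a difference beyond the spread. Hsd17b2, which oxidises oestradiol and testosterone to weaker ketones, ran from 9.73 through a median of 9.93 to 10.20 in sleep-deprived mice and from 9.79 through 9.98 to 10.19 in controls (probe set 17506030). Its log2 difference was 0.0098, with an interval of -0.14 to 0.16 (limma, adjusted p = 0.968).

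Hsd17b6, which oxidises androstanediol, was even in the sleep-deprived mice and scattered in the controls (probe set 17246057). It was 9.95, 9.70, 9.50, 9.73, 9.82, 9.54 and 9.75 in sleep-deprived mice 1, 2, 3, 5, 6, 10 and 13, and 9.67, 9.67, 9.76, 10.24, 9.55, 9.11 and 10.43 in control mice 4, 7, 8, 9, 11, 12 and 14. All sleep-deprived mice lay inside the control range. The SD was 0.16 in sleep-deprived and 0.44 in control livers, a difference in spread that was not tested. The log2 difference of -0.063 had an interval of -0.36 to 0.24 (limma, adjusted p = 0.884), wide enough to hold a change as large as that of Hsd3b7.

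Variation between mice of 1 group does not enter the difference between the group means, though it sets the SE and p of that difference. It was read separately. The 36 pairs of genes were correlated within each group over its 7 mice, 72 relations in all, with exact permutation over all orders of the mice. After adjustment 0 passed, the smallest adjusted p being 0.422 for Pearson's r and 0.243 for Spearman's rho, while 6 values of r had an unadjusted exact p under 0.05. Within the controls Cyp17a1 ran against Hsd3b5, with Pearson's r = -0.80 (exact permutation, two-sided, p = 0.0399) and Spearman's rho = -0.64 (p = 0.139). Without control mice 12 and 14, the 2 farthest from the median of Cyp17a1, r became -0.35. Leaving out extreme mice narrows the range of Cyp17a1, which by itself weakens r, so how far r rests on these 2 was not tested. Control mouse 14 was the lowest in Cyp17a1 and the highest in Hsd3b2, Hsd3b5, Hsd3b7, Hsd17b2 and Hsd17b6, and control mouse 12 the highest in Cyp17a1 and the lowest in Hsd3b2, Hsd3b3 and Hsd17b6. Within the controls Hsd3b2 and Hsd17b6 had r = 0.87 (exact permutation, p = 0.0177) and rho = 0.93 (p = 0.00675, adjusted p = 0.243), and r = 0.62 without the 2 mice farthest from the median of Hsd3b2.

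Among Hsd3b2, Hsd3b3, Hsd3b5 and Hsd3b7, Pearson's r over all 7 mice of a group was positive for the 6 pairs, from 0.43 to 0.77 with a median of 0.64 in sleep-deprived mice and from 0.084 to 0.71 with a median of 0.26 in controls. In sleep-deprived mice rho was also positive for 6 of 6 and r without 2 mice for 5 of 6, the exception being Hsd3b3 with Hsd3b5 at -0.25. The 2 mice left out were those farthest from the median of the first gene of a pair, so they differ between pairs. In controls rho was positive for 2 of 6 pairs and 0 or negative for 4, and r without 2 mice was positive for 2 and negative for 4, down to -0.71 for Hsd3b5 with Hsd3b7, so the positive sign in controls does not hold without those mice. Cyp17a1 had a negative Pearson's r with these 4 genes over all 7 mice, from -0.65 to -0.045 in sleep-deprived mice and from -0.80 to -0.39 in controls. Without 2 mice r was positive for 3 of the 4 in sleep-deprived mice, up to 0.51 for Hsd3b5, and for 2 of the 4 in controls, up to 0.50 for Hsd3b7, so these signs do not hold without those mice. None of these passed after adjustment, and the pairs share mice and arrays. Whether the groups differ in these correlations was not tested.

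**Figure D3:**
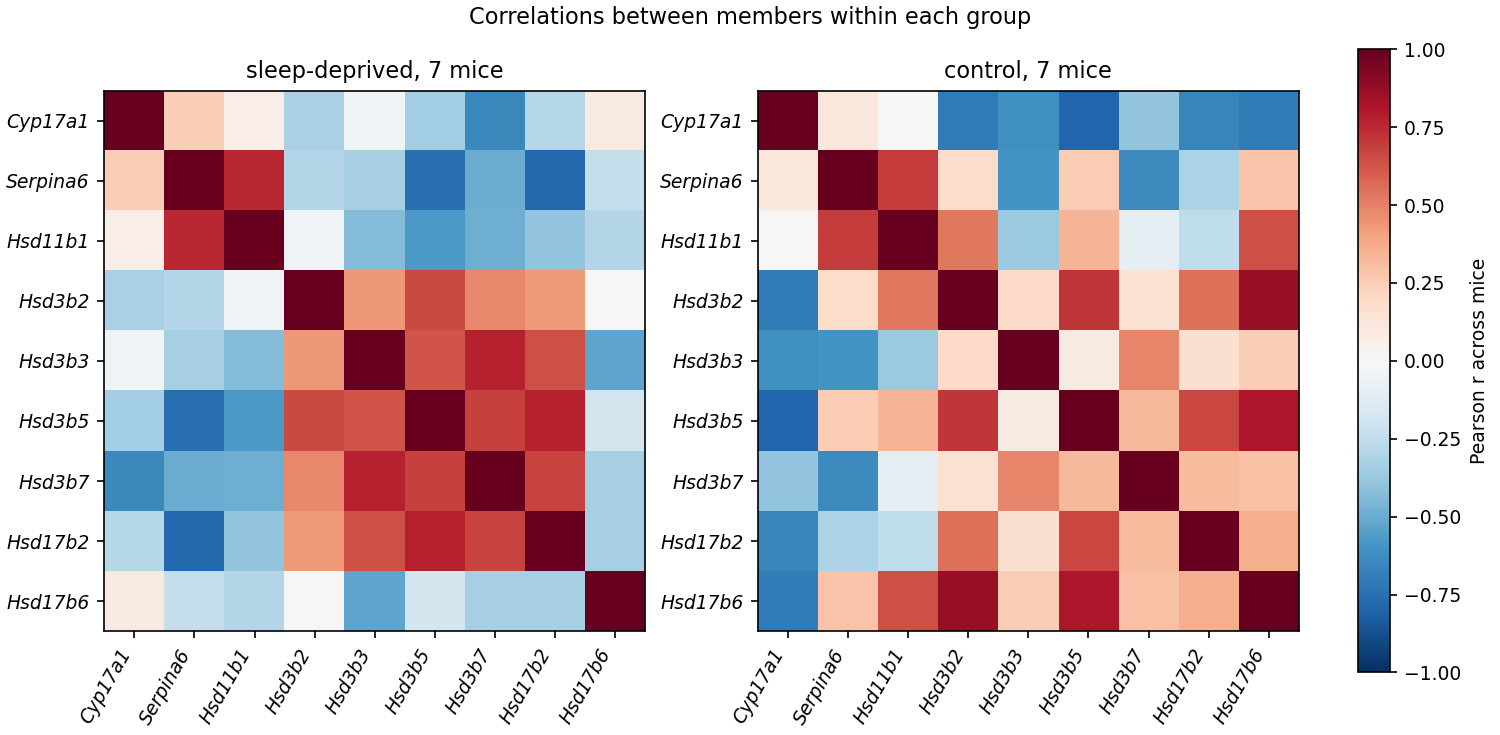
Pearson's r between the measured genes across the 7 sleep-deprived mice (left) and the 7 control mice (right), from -1 (blue) to 1 (red). Hsd3b2, Hsd3b3, Hsd3b5 and Hsd3b7 have positive values on the left, with a median r of 0.64, and Cyp17a1 is negative against them in both panels over all 7 mice, but without 2 mice 3 of these 4 values turn positive in sleep-deprived mice and 2 of 4 in controls, and 0 of the 72 relations passed after adjustment.

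Likeness was also read over 5560 other named genes with a mean log2 level of at least 6, as Pearson's r of the deviations from the group means over all 14 arrays. The genes most like Cyp17a1 were Safb2 (r = 0.78), Ski (0.74), Yipf1 (0.72), Tmem256 (0.69) and Phlda1 (0.67), and those most like Hsd3b5 were Stambp (0.86), Amdhd1 (0.84), Psmd2 (0.83), Klf12 (0.81) and Ascc2 (0.81). They are the top of a long ranking and have no p. For Yipf1 r was -0.16 within the sleep-deprived mice and 0.87 within the controls. Amdhd1, an enzyme of histidine breakdown, was the only 1 of the 10 whose groups did not overlap, at 9.20 ± 0.16 in sleep-deprived and 9.59 ± 0.097 in control livers (SD, n = 7 each; log2 difference -0.39 ± 0.064, limma, adjusted p = 0.000391).

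Around these genes, 11 lists of related genes held 163 further genes measured, of which 18 (11.0%) were higher and 36 (22.1%) lower. Over all genes these shares were 3.88% and 4.62%, and over genes at or above the 90th percentile of level 10.6% and 15.4%. The 163 genes run from dim to bright, so neither pair of shares matches their levels. Of the 18 higher genes, 8 came from the list of 14 genes that glucocorticoids induce. The counts of each list below are to be read against the same shares. Other hydroxysteroid dehydrogenases and aldo-keto reductases had 1 of 25 higher and 6 lower, with a median log2 difference of -0.053. The 4 with the smallest adjusted p are aldo-keto reductases. Akr1c6, an oxidoreductase of androgens and oestrogens, ran from 6.65 through a median of 6.78 to 6.88 in sleep-deprived mice and from 7.26 through 7.38 to 7.91 in controls, without overlap (log2 difference -0.69 ± 0.087, limma, adjusted p = 3.16e-05). Akr1d1, the reductase of delta-4 steroids that also serves bile acid synthesis, was at 8.77 ± 0.28 in sleep-deprived and 9.41 ± 0.17 in control livers (SD, n = 7 each; -0.63 ± 0.10, limma, adjusted p = 0.000442). Akr1c19 and Akr1c20 were lower by log2 differences of -0.57 each, Akr1c19 at a dim level of 3.72 in sleep-deprived and 4.29 in control livers. The 1 gene that was higher, named after its value was seen, was Hsdl2, a peroxisomal dehydrogenase-like protein (0.51 ± 0.12, limma, adjusted p = 0.00984).

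Genes that pass electrons to steroid enzymes were lower or gave no call. Of 8 measured reductases and electron donors, 0 were higher and 4 lower, with a median of -0.14, and at all 4 the groups did not overlap, beside 4.62% of all genes lower and 1.79% lower without overlap. These 4 are bright, and among genes at or above the 90th percentile of level 15.4% were lower. Por and Fdxr, which hand electrons to microsomal and mitochondrial P450 enzymes, were not analysed here. Fdx1, the ferredoxin of mitochondrial P450 enzymes, was at 7.64 ± 0.165 in sleep-deprived and 8.13 ± 0.149 in control livers (SD, n = 7 each), a log2 difference of -0.49 ± 0.077 (limma, adjusted p = 0.000275). Cyb5a, the cytochrome b5 that favours the lyase step of Cyp17a1, was lower by a small step, at 9.47 ± 0.051 in sleep-deprived and 9.70 ± 0.081 in control livers (-0.23 ± 0.043, limma, adjusted p = 0.00154), so that it and Cyp17a1 moved in opposite directions. Its mitochondrial relative Cyb5b was at -0.41 ± 0.079 and Pgrmc1, a haem-binding partner of P450 enzymes, at -0.19 ± 0.038.

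Among other P450 enzymes that act on steroids, 2 of 24 were higher and 3 lower, with a median of -0.033. Cyp39a1, an oxysterol hydroxylase, ran from 7.66 through a median of 8.49 to 9.00 in sleep-deprived mice and from 6.97 through 7.38 to 7.70 in controls (log2 difference 1.04 ± 0.16, limma, adjusted p = 0.000294). Cyp2b10, a drug- and steroid-inducible hydroxylase, was at 6.49 ± 1.03 in sleep-deprived and 4.12 ± 0.64 in control livers (SD, n = 7 each). The lower genes were led by Cyp2a4, a hydroxylase of testosterone, at 7.08 ± 0.24 in sleep-deprived and 7.95 ± 0.20 in control livers (SD, n = 7 each), and by its close copy Cyp2a5, at 4.06 ± 0.256 and 4.88 ± 0.335 in the same order. Probes of 1 of these copies may also read the other, which was not tested.

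Conjugation genes split, 2 of 22 being higher and 6 lower, with a median of -0.12. Ugt2b35, a glucuronosyltransferase, was 2.05-fold lower: it ran from 7.59 through a median of 7.68 to 8.03 in sleep-deprived mice and from 8.65 through 8.70 to 9.12 in controls, without overlap (log2 difference -1.03 ± 0.079, limma, adjusted p = 1.15e-07). Papss2, which makes the sulfate donor for steroid sulfation, was at 10.16 ± 0.258 in sleep-deprived and 10.89 ± 0.145 in control livers (SD, n = 7 each; -0.73 ± 0.093, limma, adjusted p = 3.18e-05). Sult2a8, a sulfotransferase of mouse liver, was at -0.39 ± 0.052. Sult1d1, another sulfotransferase, was higher without overlap, at 10.33 ± 0.164 in sleep-deprived and 9.47 ± 0.111 in control livers (SD, n = 7 each; 0.85 ± 0.067, limma, adjusted p = 1.20e-07), and Sult1e1, which sulfates oestrogens, was higher at a dim level of 3.37 ± 0.21 in sleep-deprived and 2.96 ± 0.15 in control livers (SD, n = 7 each; 0.41 ± 0.094, limma, adjusted p = 0.00782).

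Of 15 further carriers and transporters 0 were higher and 4 lower, with a median of -0.16. Serpina7, the carrier of thyroid hormone and a close relative of Serpina6, ran from 6.00 through a median of 6.73 to 7.43 in sleep-deprived mice and from 6.97 through 7.30 to 7.83 in controls, overlapping in 3 sleep-deprived mice (log2 difference -0.70 ± 0.19, limma, adjusted p = 0.0204, but 0.0690 with robust estimation and 0.0613 with the sample number as a covariate). The bile acid and steroid conjugate transporters Slco1b2 and Abcc2 had log2 differences of -0.20 ± 0.045 and -0.19 ± 0.044. Abcc3, another conjugate exporter, was at -0.39 ± 0.11 (limma, adjusted p = 0.0282), a call lost with robust estimation (0.0520), with the sample number as a covariate (0.105) and without sleep-deprived mouse 1 (0.0649), 2 (0.0550) or 13 (0.0677) or control mouse 4 (0.0571), 9 (0.0559) or 14 (0.0601). Shbg, the carrier of sex steroids, which adult mouse liver makes in very small amounts, was at 2.79 ± 0.0935 in sleep-deprived and 2.85 ± 0.226 in control livers (SD, n = 7 each; limma, adjusted p = 0.823).

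Of 13 steroid-sensing receptors 0 were higher and 5 lower, with a median of -0.15. Beside Nr3c1 these included the oestrogen receptor gene Esr1, from 5.80 through a median of 6.64 to 6.91 in sleep-deprived mice and from 6.64 through 7.27 to 7.42 in controls (log2 difference -0.61 ± 0.14, limma, adjusted p = 0.00750). The mineralocorticoid receptor gene Nr3c2 was at -0.40 ± 0.095 and Nr5a2, a nuclear receptor that drives bile acid and steroid enzymes, at -0.23 ± 0.056. In 4 sleep-deprived mice Esr1 lay inside the control range.

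Bile acid synthesis, the pathway of Hsd3b7, had 2 of 16 genes higher and 5 lower, with a median of -0.15. Amacr, a racemase that prepares the side chain for shortening, ran from 9.25 through a median of 9.38 to 9.53 in sleep-deprived mice and from 9.71 through 9.87 to 9.94 in controls (log2 difference -0.46 ± 0.054, limma, adjusted p = 1.39e-05). Acox2, the oxidase of the following peroxisomal step, moved the other way without overlap, at 9.50 ± 0.12 in sleep-deprived and 9.03 ± 0.17 in control livers (SD, n = 7 each; 0.47 ± 0.069, limma, adjusted p = 0.000137). Akr1d1 and Akr1c6, described above, are also members. Cyp7a1, the first and rate-limiting enzyme, was lower, at 9.94 ± 0.475 in sleep-deprived and 10.54 ± 0.153 in control livers (SD, n = 7 each; limma, adjusted p = 0.0148, but 0.0617 with robust estimation). Among 9 genes that deliver cholesterol 0 were higher and 2 lower, the sterol carrier Stard4 (-0.75 ± 0.13) and the lysosomal cholesterol exporter Npc1 (-0.19 ± 0.045), which did not pass with averaged probe sets (limma, adjusted p = 0.521).

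Since Hsd3b5 is a male-specific gene of the liver, other genes known to differ between the sexes were counted. Of 18 male-biased genes 2 were higher and 2 lower, with a median of -0.0029, and of 17 female-biased genes 3 were higher and 2 lower, with a median of -0.00055. Per mouse, the female-biased genes averaged a log2 level of 3.54 to 4.29 in sleep-deprived and 3.61 to 4.08 in control mice. The male-biased genes averaged 9.70 to 10.01 and 9.68 to 9.84, in the same order of groups. Array medians were 3.443 to 3.491, so the female-biased list is dim on average and its median says little about a shift. The male-biased complement gene C6 was higher (0.32 ± 0.062) and Nudt7 and Susd4 lower (-0.40 ± 0.088 and -0.44 ± 0.097). Elovl3, a male-biased fatty acid elongase, was at 10.97 ± 0.485 in sleep-deprived and 9.55 ± 0.2 in control livers (SD, n = 7 each). Among the female-biased genes Cyp4a14 and Sult1e1 were higher and Abcd2 and Cyp2a4 lower, with log2 differences of 2.91 ± 0.62 for Cyp4a14 and -1.38 ± 0.24 for Abcd2.

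**Figure D4:**
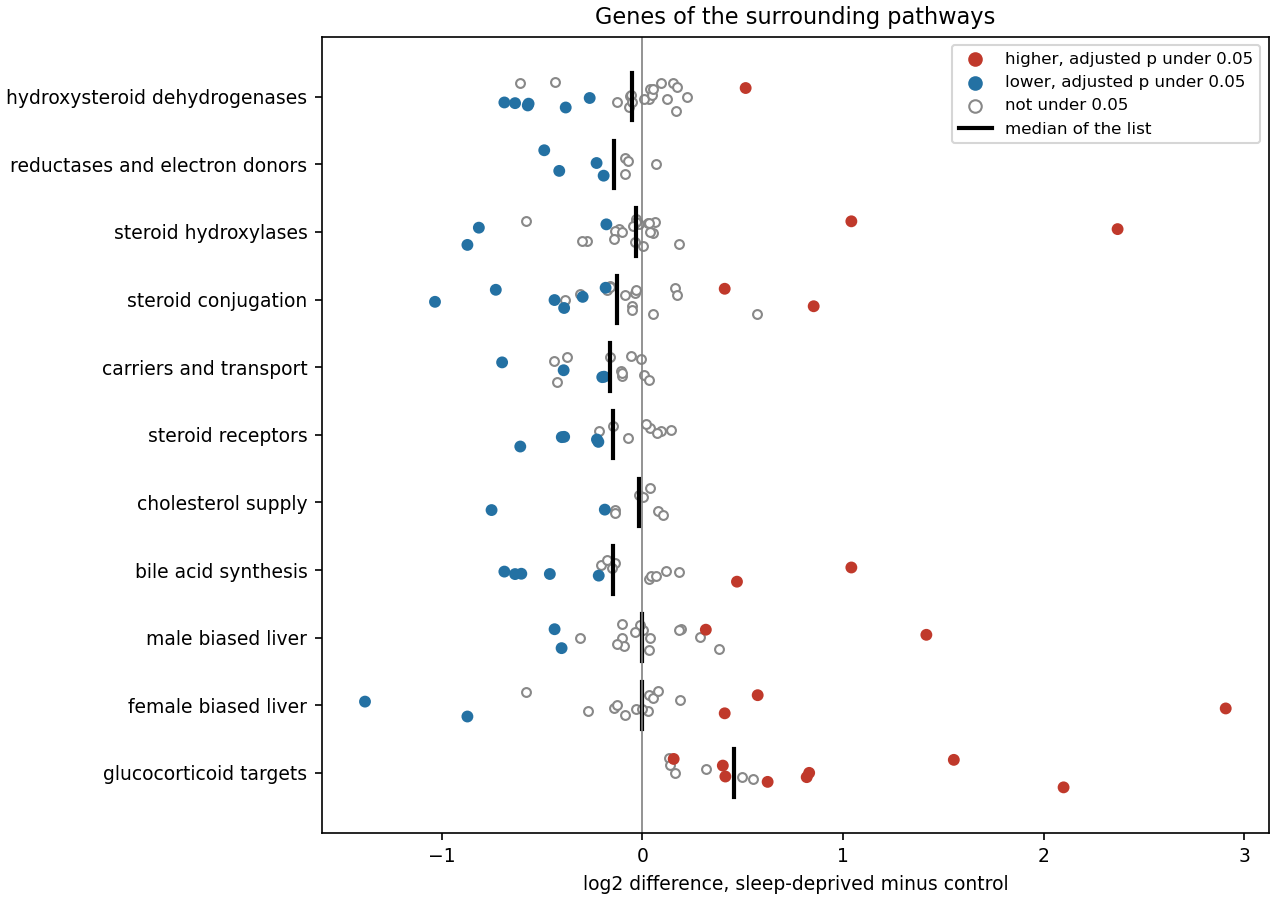
Log2 difference, sleep-deprived minus control, of each measured gene in the 11 lists around steroid metabolism; each point is a gene, filled where its adjusted p was under 0.05 (red higher, blue lower), and the bar is the median of the list. Reductases and electron donors, carriers and receptors hold 4, 4 and 5 lower genes and 0 higher ones, and the glucocorticoid-induced genes lie to the right with a median of 0.45. The sex-biased lists centre near 0, the female-biased one at a dim mean log2 level of 3.54 to 4.29 in sleep-deprived and 3.61 to 4.08 in control mice.

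Markers of other cell types were read beside these results. Sinusoidal endothelial markers were higher in 3 of 7, Lyve1 by 1.13, Oit3 by 0.46 and Pecam1 by 0.29 (log2), beside 3.88% of all genes. The other 4 did not pass, Kdr at -0.18 and Stab2, Clec4g and Stab1 at 0.044, 0.12 and 0.17. The summed log2 level of the 7 ranged from 50.9 to 54.3 in sleep-deprived and from 49.2 to 51.6 in control mice, with Lyve1 as the largest difference in it. Of 9 markers of pericentral hepatocytes 2 were lower, Lgr5 and Lect2, and the sum ranged from 77.4 to 79.6 in sleep-deprived and from 79.6 to 80.6 in control mice, while the defining pericentral genes Glul and Cyp2e1 differed by 0.077 and -0.036 and did not pass. Of 6 periportal markers 1 was higher and 1 lower, of 4 cholangiocyte markers 1 was higher, of 4 blood markers 1 was lower, and of 7 Kupffer cell and 7 stellate cell markers 0 passed (0 and 1 at an unadjusted p under 0.05). The part of these shifts in the results above was not tested.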

How the data were processed

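The deposited table holds log2 expression per probe set for 14 liver arrays, labelled from 100 ng of total RNA with a whole-transcript kit per the labels' protocols, and made with RMA by the authors per the submitters' processing notes. No source used here gives the software version, annotation or filters. It has 41345 probe sets: 23521 have 1 gene symbol, 1814 several and 16010 are unnamed here. Symbols were checked by Entrez ID (23328 matched, 0 changed), and the brightest probe set was kept for each of the 1082 genes with several, leaving 22180 genes with no filter on dim ones. RMA quantile-normalises arrays, so a shift of most genes in 1 direction would not show. The number of arrays, 7 per group, limits the precision.

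The difference, sleep-deprived minus control, came from limma 3.58.1 under R 4.3.3, with lmFit and a trended eBayes. Two-sided p-values were adjusted over the 22180 genes (Benjamini-Hochberg) and called under 0.05. The labels do not state that each sample came from its own mouse, so p-values measure the spread between these samples. Correlations used exact permutation in scipy 1.17.1, adjusted over 72. Promoter windows of RefSeq (GRCm38.p6) matched 7 of the 10 genes, and were compared by local alignment with biopython 1.88. The genes, the lists and the alternatives were chosen with earlier results of these data known. Named were all measured members, up to 4 further genes per list with the smallest adjusted p, 7 set genes where measured, and 5 genes most like Cyp17a1 and like Hsd3b5. Hsd3b1, Hsd3b6 and Hsdl2 were added after values were seen. The alternatives were other eBayes settings, array weights, other probe-set summaries, renewed scaling, the sample number as a covariate, brighter genes alone and leaving out each mouse. In a simulation of 22180 genes at the arrays' own spread, the fit recovered 84% of 100 genes changed by 0.5 and 96% of 100 changed by 1 on the log2 scale, with 9 false calls. Each simulated gene was drawn independently from a normal distribution and no other genes were changed. In the data 1886 genes were called and genes share arrays, so these rates need not carry over.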

Additional observations from a re-analysis of the deposited data

Results flagged for a closer look

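Each group of 7 mice was checked, for 128 combinations of gene and group, for a mouse far from the others. Chance flags about 1 in 20 such groups, and 6 stood out, none among the 9 measured steroid genes. Control mouse 11 was highest in Cyp2a5, at 5.60 where the next control was at 4.94. Control mouse 7 was highest in Ugt2b35, at 9.12 with the next at 8.78. Sleep-deprived mouse 1 was lowest in Esr1, at 5.80 with the next at 6.44, and sleep-deprived mouse 3 lowest in Nr3c1, at 7.43 with the next at 7.68. Sleep-deprived mouse 2 was lowest in Zbtb16, at 8.05 with the next at 8.73, and in Cyp4a14, at 6.81 with the next at 9.56.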

How the results depend on the processing

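Among 1468 combinations of a named gene and an alternative, 1424 kept direction and side of the threshold, 29 lost a call and 15 turned direction, and for the 9 measured genes these were 185, 11 and 11 of 207. All 11 lost calls among the 9 were those of Hsd3b5. The direction turned only for genes without a call: Hsd11b1 was at 0.0019 after renewed quantile scaling and 0.026 with the sample number as a covariate, Hsd17b2 at -0.0062 with array weights, Hsd3b1 at 0.047 with that covariate and Yipf1 at 0.045 with averaged probe sets. Over the 14 fits without 1 mouse, the difference ranged from -0.026 to 0.052 for Hsd17b2, from -0.17 to 0.046 for Hsd17b6 and from -0.057 to 0.020 for Yipf1. Calls over all genes ranged from 1541 to 1967, against 1886, with 679 to 950 higher and 862 to 1087 lower. When the 11090 brighter genes were tested alone, 2259 were called, 1046 higher and 1213 lower. No paired analysis was possible because the labels number the 14 samples in 1 run, so the groups share no number. RMA gives no detection calls, and differences of dim genes such as Hsd3b1 and Hsd3b6 are compressed.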
